A study of Mus musculus with 20 samples.

Results

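The voltage-gated sodium and calcium channel genes were followed across 20 mouse arrays. Members were the genes whose annotated symbol begins with Scn, then a number and a or b, or begins with Cacna, Cacnb, Cacng or Cacna2d. This gave 35 genes of 18193 with a named probe set: 8 pore-forming alpha and 3 beta subunit genes of sodium channels, and 9 alpha1, 4 alpha2delta, 3 beta and 8 gamma subunit genes of calcium channels. Each gene was read from its brightest probe set over the 20 arrays, and its intensities are on the linear scale of the deposited table. The rule reads only the symbol and the mean intensity. In total 33 members passed the filter on low values and were tested among 15132 genes. Cacng6 and Scn10a did not pass it. A gene is called changed here at an adjusted p below 0.05 in limma, and differences are of group means of log2(intensity + 16), which understate the change of dim genes.

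The arrays held 4 ganglion samples and 2 neurosphere cultures of wild-type mice, whose labelled background is 129+Ter/SvJcl. All other samples carried a MYCN transgene, a model of neuroblastoma, on a mixed 129+Ter/SvJcl background. These were 2 ganglion samples and 4 tumors of MYCN Tg homozygotes, 2 tumors of homozygotes that were also Mdk KO, and 4 tumors and 2 tumorsphere cultures of MYCN Tg hemizygotes. The promoter of the transgene, the kind of ganglion, the age of the animals and whether replicates were separate animals are not given in the sources used here. The p-values therefore cover only the variation among the arrays of a group, which may be technical. The background differs between wild-type and transgenic samples and cannot be told apart from the transgene.

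Voltage-gated sodium channels open within a fraction of a millisecond when a neuron depolarizes and carry the upstroke of the action potential. An alpha subunit forms the pore, and beta subunits, which cross the membrane by a single segment and carry an immunoglobulin domain, tune its gating and hold it at the cell surface. Voltage-gated calcium channels turn that depolarization into calcium entry, which releases transmitter and starts gene expression. Their alpha1 subunit forms the pore, alpha2delta and beta subunits bring it to the membrane, and most gamma subunits named Cacng serve as auxiliary subunits of AMPA-type glutamate receptors. Sympathetic neurons, the lineage of neuroblastoma, use these channels to fire and to release noradrenaline.

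The Mdk intensity was 42.6 and 35.5 in the Mdk knockout tumors and 268 to 297 in homozygous tumors. Markers of sympathetic neurons (8 genes) summed to 13700 to 33400 in wild-type ganglia and 4850 to 9280 in tumors. Neurospheres reached only 66.6 and 76.9, so they were not sympathetic by these markers. The tumor sums do not speak for each marker. Ddc made up 2700 to 3850 of them, while Slc6a2 was 15.4 and 8.56 in hemizygous tumors 3 and 4. In wild-type ganglia Slc6a2 was 4150 to 9830, and in neurospheres 13.4 and 1.07. Skeletal muscle RNA was uneven: Acta1, the muscle actin, exceeded 100 on hemizygous tumor 3, Mdk knockout tumor 2, homozygous tumor 2, homozygous ganglion 2 and wild-type ganglia 1 and 2. Wild-type ganglia 3 and 4 stood apart from 1 and 2. Of the 33 tested members, 17 (51.5%) were higher in both of the former than in both of the latter, against 30.3% of all tested genes, and 4 members (12.1%) were lower, against 34.9%. For beta-actin, a control on the array, the signal near the 3' end over that near the 5' end rises as RNA degrades. Wild-type ganglia had a ratio of 6.88 ± 1.96 (SD, n = 4) and homozygous ganglia one of 4.35 ± 0.467 (SD, n = 2). Homozygous tumors had 2.55 ± 0.174 (SD, n = 4) and hemizygous tumors 2.2 ± 0.337 (SD, n = 4). The like ratio for Gapdh was 2.56 to 4.13 in wild-type ganglia, 2.77 to 3.61 in homozygous and 2.71 to 3.14 in hemizygous tumors, and 11.5 on neurosphere 2. The other arrays were at most at 4.49. The part of these ratios in the differences was not tested.

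Of the sodium channel alpha genes, 5 lie on chromosome 2, in the order Scn3a, Scn2a, Scn1a, Scn9a and Scn7a. In the gene order of GRCm38.p6, Scn2a follows Scn3a directly, 3 protein-coding genes lie between Scn2a and Scn1a, and none lies between Scn1a, Scn9a and Scn7a. All 5 fell in both kinds of tumor, while Scn8a, on chromosome 15, rose. The 250 bases before the start site are shown for the 3 direct neighbours and for Scn8a, from RefSeq on GRCm38.p6, each 5' to 3' on the strand of its gene. Capitals mark a GC box (GGGCGG on either strand), the binding motif of Sp factors.
Scn1a, chr2:66440838-66441087, minus strand: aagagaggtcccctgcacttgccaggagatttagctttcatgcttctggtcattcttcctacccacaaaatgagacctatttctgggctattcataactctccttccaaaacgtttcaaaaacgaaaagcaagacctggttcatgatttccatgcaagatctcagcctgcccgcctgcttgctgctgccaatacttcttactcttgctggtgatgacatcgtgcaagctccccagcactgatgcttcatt
Scn9a, chr2:66634963-66635212, minus strand: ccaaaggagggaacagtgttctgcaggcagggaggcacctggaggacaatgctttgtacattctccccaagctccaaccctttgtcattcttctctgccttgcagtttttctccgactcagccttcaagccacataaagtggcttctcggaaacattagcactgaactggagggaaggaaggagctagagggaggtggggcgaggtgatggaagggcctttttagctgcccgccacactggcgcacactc
Scn7a, chr2:66784911-66785160, minus strand: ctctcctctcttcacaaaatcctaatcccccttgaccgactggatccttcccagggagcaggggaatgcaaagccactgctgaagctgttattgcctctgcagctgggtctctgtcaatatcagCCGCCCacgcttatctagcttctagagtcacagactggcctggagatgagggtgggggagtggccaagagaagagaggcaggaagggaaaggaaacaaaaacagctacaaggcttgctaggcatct
Scn8a, chr15:100870395-100870644, plus strand: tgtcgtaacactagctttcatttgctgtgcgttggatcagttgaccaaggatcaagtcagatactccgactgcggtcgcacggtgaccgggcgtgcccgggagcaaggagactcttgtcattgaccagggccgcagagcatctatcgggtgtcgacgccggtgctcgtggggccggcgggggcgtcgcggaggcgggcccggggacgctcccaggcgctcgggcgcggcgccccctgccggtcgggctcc

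The windows of the 3 neighbours held 46.8% (Scn1a), 54.4% (Scn9a) and 53.2% (Scn7a) G and C, and the window shown for Scn8a held 68%. A second Scn8a window in the table held 53.2%, against a median of 52.4% over the 32851 promoter windows of the table. The table had 37 windows for 27 of the 35 members. The GC box GGGCGG stood in 14 of the 37 (37.8%), those of Scn7a, Cacna1b, Cacna1c and Cacna1d among them, and in 32.7% of all windows. The TATA box TATAAA stood in 2 of the 37 (5.41%), of Cacna1d and Scn2a, and in 12.4% of all. No member window held the E-box CACGTG (6.02% of all windows), a motif that MYC proteins bind, the cyclic AMP response element TGACGTCA (1.55%), or TTCAGCACC, a part of the RE1 motif of the repressor REST (0.301%). All motifs were searched on both strands, and a match or its absence describes these letters only.

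In homozygous tumors against wild-type ganglia, 17 of the 33 tested members passed, 6 higher and 11 lower. The background was high: 49.8% of all genes tested passed, 23.1% higher and 26.6% lower. The share of members that passed, 51.5%, was near it. In hemizygous tumors against the same ganglia 20 members passed, 6 higher and 14 lower, where 52.6% of all genes passed, 27% higher and 25.6% lower. Without overlap between the groups, 6 members lay higher and 10 lower in homozygous tumors than in wild-type ganglia, against 20.8% and 22.9% of all genes. In hemizygous tumors 6 lay higher and 13 lower, against 22.2% and 20.1%. The median log2 difference of the members was -0.25 and -0.32 in the 2 comparisons, and that of all genes -0.12 and -0.05. Both comparisons share their 4 controls. The calls were spread unevenly over the families: sodium channel genes made up 8 of the 11 and 8 of the 14 that fell. Fewer neurons in a sample and less RNA per neuron cannot be told apart in bulk RNA. Beside these differences, 7 of 8 measured markers of Schwann and satellite glia fell and 1 (Mbp) rose in each kind of tumor, with sums of 9690 to 11100 in wild-type ganglia, 1120 to 1350 in homozygous and 853 to 1260 in hemizygous tumors. Of 8 sympathetic markers 5 fell in homozygous and 6 in hemizygous tumors, and 1 (Gata3) rose in each. Of 12 neuronal markers 4 and 7 fell while 1 (Nefm) and 2 (Nefm and Nefh) rose, and their sums were 17300 to 30800 in wild-type ganglia, 14300 to 16000 in homozygous and 7840 to 10300 in hemizygous tumors. All 6 fibroblast markers fell and all 6 markers of dividing cells rose in both. The part of these markers in the channel differences was not tested.

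**Figure D1:**
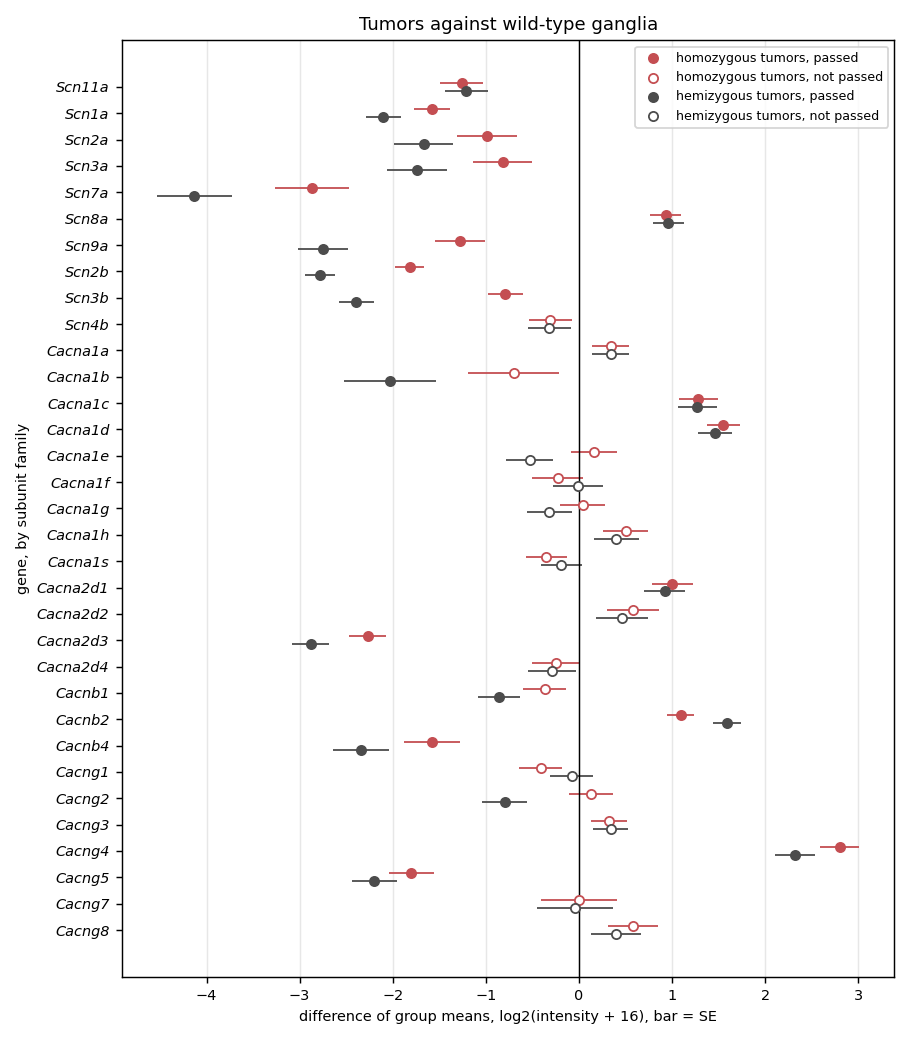
Difference of group means in log2(intensity + 16) between tumors and the 4 wild-type ganglia for the 33 tested channel genes, grouped by subunit family, with bars of 1 SE. Filled points passed at an adjusted p below 0.05. Sodium channel genes other than Scn8a and Scn4b lie left of 0 and passed in both kinds of tumor, and Cacng4 lies farthest right.

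Among sodium channel alpha subunits, 6 of 7 tested fell in each kind of tumor and 1 rose. Scn7a encodes an atypical channel that senses the sodium level outside the cell and does not open with voltage. Its intensity was 926, 465, 1250 and 1300 in wild-type ganglia and 491 and 334 in homozygous ganglia. In homozygous tumors it was 123, 146, 73.3 and 115, in Mdk knockout tumors 79.6 and 118 and in hemizygous tumors 98.3, 54.9, 10.7 and 20.6. No tumor reached the lowest ganglion. The log2 difference to wild-type ganglia was -2.87 (SE 0.4, adjusted p = 9.5e-06) in homozygous and -4.13 (SE 0.4, adjusted p = 9.6e-08) in hemizygous tumors. Scn9a, the channel of sensory and sympathetic neurons whose loss in people abolishes pain, measured 890, 770, 1050 and 732 in wild-type and 691 and 665 in homozygous ganglia. It measured 400, 497, 296 and 232 in homozygous, 229 and 397 in Mdk knockout and 103, 67.9, 222 and 101 in hemizygous tumors. All tumors were below all ganglia, and every hemizygous tumor was below every homozygous one. The log2 difference was -1.28 (SE 0.27, adjusted p = 0.00083) in homozygous and -2.75 (SE 0.27, adjusted p = 1.6e-07) in hemizygous tumors.

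Scn1a, which drives firing of inhibitory neurons in the brain, measured 73.1, 58.1, 117 and 113 in wild-type ganglia and 40.6 and 43.8 in homozygous ganglia. Its tumor values were 16, 21.3, 18.4 and 18.2 in homozygotes, 12.3 and 14.2 with Mdk knockout and 3.58, 7.34, 12.4 and 9.7 in hemizygotes. The order was the same throughout, with wild-type ganglia highest, homozygous ganglia between them and the tumors, and no overlap between ganglia and tumors. The log2 difference to wild-type ganglia was -1.58 (SE 0.19, adjusted p = 2.1e-06) in homozygous and -2.1 (SE 0.19, adjusted p = 4.9e-08) in hemizygous tumors. Scn11a, a channel of pain-sensing neurons, measured 32, 25.6, 71.4 and 76.7 in wild-type ganglia, 26.3 and 36.3 in homozygous ganglia, 8.44, 13.1, 8.07 and 13 in homozygous tumors, 11.2 and 10.6 in Mdk knockout tumors and 5.78, 16.6, 11.8 and 12.3 in hemizygous tumors. Ganglia were again above every tumor, and wild-type ganglia 3 and 4 were highest. The Scn11a log2 difference was -1.26 in homozygous and -1.21 in hemizygous tumors.

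Scn2a and Scn3a, channels of young axons and of the embryonic brain, differed among the controls themselves. Scn2a measured 104, 74.7, 315 and 300 in wild-type ganglia 1 to 4 and 78 and 95.8 in homozygous ganglia. It was 89.3, 82.9, 82.8 and 55.7 in homozygous tumors, 50.4 and 66.5 in Mdk knockout tumors and 35.6, 38.8, 45.8 and 47.5 in hemizygous tumors. For Scn3a the values were 223, 154, 686 and 564 in wild-type ganglia, 202 and 225 in homozygous ganglia, 191, 182, 218 and 161 in homozygous tumors, 143 and 154 in Mdk knockout tumors and 81.2, 80.2, 105 and 102 in hemizygous tumors. Hemizygous tumors were below all ganglia for both genes, with log2 differences of -1.67 (SE 0.32, adjusted p = 0.00025) for Scn2a and -1.74 (SE 0.32, adjusted p = 0.00017) for Scn3a. Homozygous tumors overlapped wild-type ganglia 1 and 2. Their differences of -0.99 (SE 0.32, adjusted p = 0.016) and -0.82 (SE 0.32, adjusted p = 0.041) depended on wild-type ganglia 3 and 4. Against ganglia 1 and 2 alone they were -0.17 (adjusted p = 0.54) for Scn2a and 0.01 (adjusted p = 0.98) for Scn3a. Against ganglia 3 and 4 alone they were -1.8 and -1.65. Leaving out wild-type ganglion 3 or 4 also ended both calls (Scn2a -0.7 and -0.72, Scn3a -0.5 and -0.59). So did leaving out homozygous tumor 4 for Scn2a (-0.86), and any of the 4 homozygous tumors for Scn3a (-0.89 to -0.76). The hemizygous differences stayed past the threshold against ganglia 1 and 2 alone, at -0.85 and -0.91.

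Scn8a, the main channel of nodes of Ranvier and axon initial segments, moved the other way. Its intensity was 44.2, 32.2, 59.6 and 60.7 in wild-type ganglia, 63.1 and 55.6 in homozygous ganglia, 102, 101, 112 and 108 in homozygous tumors, 91.6 and 125 in Mdk knockout tumors and 112, 103, 132 and 92.6 in hemizygous tumors. Every tumor was above every ganglion. The log2 difference was 0.93 (SE 0.17, adjusted p = 2e-04) in homozygous and 0.96 (SE 0.17, adjusted p = 0.00011) in hemizygous tumors. The mean rose from 49.2 ± 13.6 (SD, n = 4) in wild-type ganglia to 106 ± 5.34 (SD, n = 4) in homozygotes and 110 ± 16.8 (SD, n = 4) in hemizygotes. Of 3 other Scn8a probe sets that passed the filter, all 3 were higher in homozygous tumors (0.03 to 0.67) and 2 in hemizygous tumors (-0.02 to 1.34). A dimmer set below the filter was lower in both, by -0.24 and -0.27.

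**Figure D2:**
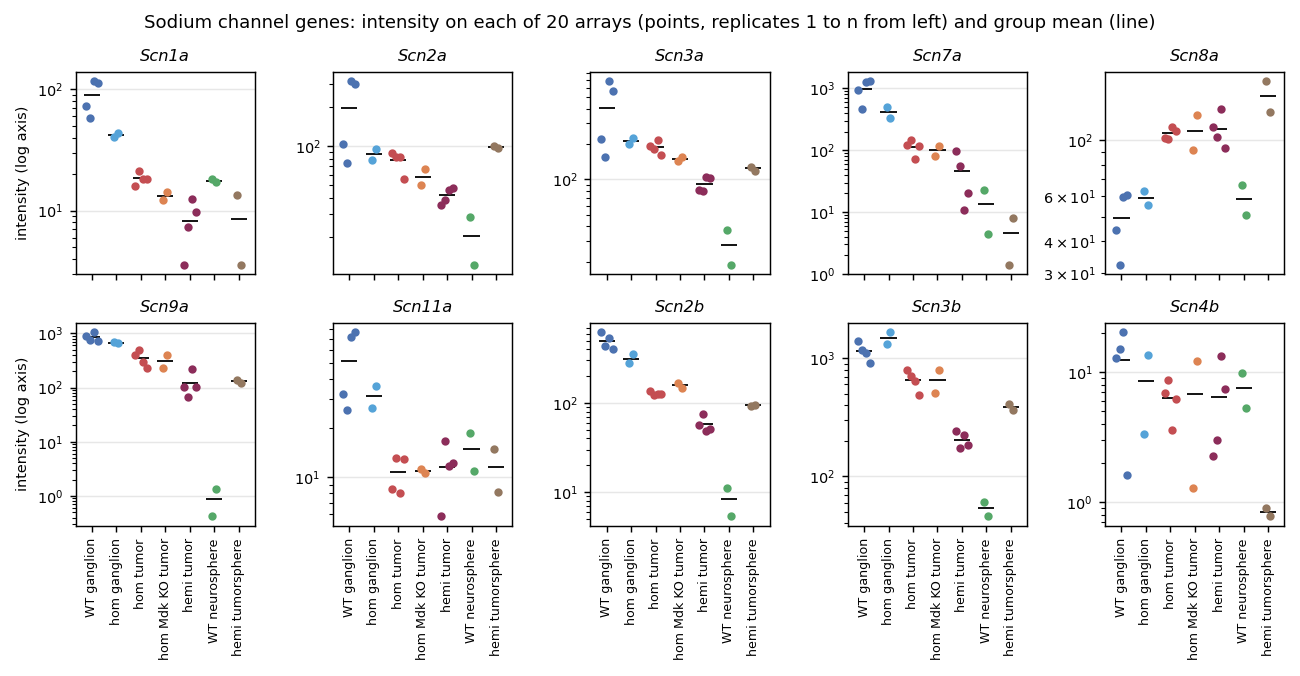
Intensity of 10 tested sodium channel genes on each of the 20 arrays (log axis, a scale of its own for each gene), with replicates from left to right and the group mean as a line. Scn8a is the gene whose tumors all lie above the ganglia; for the other alpha genes wild-type ganglia hold the highest mean.

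Of the 3 beta subunit genes of sodium channels, Scn2b and Scn3b fell in both kinds of tumor. Scn2b links to the alpha subunit by a disulfide bond and raises its number at the surface. It measured 620, 434, 531 and 399 in wild-type ganglia, 281 and 350 in homozygous ganglia, 136, 122, 126 and 127 in homozygous tumors, 168 and 149 in Mdk knockout tumors and 57.1, 75.4, 49 and 50.6 in hemizygous tumors. The groups formed steps without overlap from wild-type ganglia to homozygous ganglia, homozygous tumors and hemizygous tumors. Log2 differences to wild-type ganglia were -1.82 (SE 0.16, adjusted p = 5.7e-08) and -2.78 (SE 0.16, adjusted p = 2.3e-10), and the mean went from 496 ± 99.5 (SD, n = 4) in wild-type ganglia to 128 ± 5.77 (SD, n = 4) and 58 ± 12.1 (SD, n = 4) in homozygous and hemizygous tumors. Scn3b, which binds without such a bond, measured 1390, 1180, 1110 and 906 in wild-type ganglia, 1330 and 1660 in homozygous ganglia, 796, 710, 645 and 493 in homozygous tumors, 509 and 797 in Mdk knockout tumors and 240, 173, 226 and 183 in hemizygous tumors. Its fall was -0.79 (SE 0.19, adjusted p = 0.0023) in homozygous and -2.39 (SE 0.19, adjusted p = 1e-08) in hemizygous tumors. Other probe sets of these genes moved less: 2 of Scn2b by -0.63 and -0.54 and 1 of Scn3b by -0.01 in homozygous tumors. Averaging all probe sets put the Scn3b difference in homozygous tumors at -0.4 (adjusted p = 0.05), at the limit, where it no longer passed. Scn4b, the remaining beta gene, reached 20.3 at most and passed in no comparison.

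The pore genes of calcium channels did not fall as a family. Of 9 alpha1 genes tested, 2 rose in homozygous tumors and none fell, and in hemizygous tumors the same 2 rose and 1 fell. Both that rose form L-type channels, the slowly inactivating kind that is blocked by dihydropyridine drugs. Cacna1d measured 68.9, 48.1, 69.1 and 48.4 in wild-type ganglia, 87.1 and 88.7 in homozygous ganglia, 193, 227, 196 and 190 in homozygous tumors, 229 and 172 in Mdk knockout tumors and 147, 155, 268 and 199 in hemizygous tumors. Every tumor exceeded every ganglion, with log2 differences to wild-type ganglia of 1.55 (SE 0.18, adjusted p = 1.7e-06) and 1.46 (SE 0.18, adjusted p = 2.7e-06). Its second probe set differed by -0.05 in homozygous and 0.22 in hemizygous tumors, so the rise rests on the brightest probe set, whose name marks it as able to match several transcripts. Cacna1c, the L-type channel of heart and smooth muscle as well as neurons, measured 21.8, 32.3, 29.5 and 15.8 in wild-type ganglia, 38.7 and 27 in homozygous ganglia, 80.1, 62.9, 105 and 84.4 in homozygous tumors, 85.8 and 59.9 in Mdk knockout tumors and 122, 93.1, 67.4 and 54.9 in hemizygous tumors. Ganglia lay below every tumor, and the log2 differences to wild-type ganglia were 1.28 (SE 0.21, adjusted p = 7.4e-05) and 1.27 (SE 0.21, adjusted p = 6.8e-05). Its second probe set differed by 0.11 and 0.09, and the mean of both by 0.7 (adjusted p = 0.0015) and 0.68 (adjusted p = 0.0017). Smooth muscle and pericyte markers, of which 3 of 10 rose in hemizygous tumors and 2 of 10 (Pdgfrb and Abcc9) fell in homozygous ones, summed to 827 to 2520 in wild-type ganglia, 1420 to 2230 in homozygous and 3080 to 5360 in hemizygous tumors. Their part in the Cacna1c difference was not tested.

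Cacna1b, the N-type channel through which sympathetic neurons release transmitter, fell in hemizygous tumors. It measured 240, 190, 1470 and 1370 in wild-type ganglia 1 to 4, 215 and 246 in homozygous ganglia and 336, 321, 396 and 305 in homozygous tumors. Values were 245 and 270 in Mdk knockout tumors and 107, 134, 166 and 99.1 in hemizygous tumors. Wild-type ganglia 3 and 4 were far above all other arrays, while ganglia 1 and 2 lay below every homozygous tumor. The log2 difference was -2.03 (SE 0.49, adjusted p = 0.0019) in hemizygous tumors and -0.7 (SE 0.49, adjusted p = 0.25) in homozygous tumors, which did not pass. Against ganglia 1 and 2 alone the hemizygous difference was -0.71 (adjusted p = 0.039), and against ganglia 3 and 4 alone -3.35. Cacna1e, the R-type channel, measured 23.3, 19.7, 49.2 and 58.8 in wild-type ganglia, 31.3 and 29.6 in homozygous ganglia, 67.8, 29.5, 41.5 and 32.1 in homozygous tumors, 31 and 46.3 in Mdk knockout tumors and 19, 16.6, 24.9 and 18 in hemizygous tumors, and passed in neither comparison. Cacna1h, a T-type channel that opens near the resting potential, measured 13.6, 11, 1.16 and 0.653 in wild-type ganglia, 3.69 and 3.68 in homozygous ganglia, 14.7, 17, 13.2 and 15.2 in homozygous tumors, 16.9 and 11.4 in Mdk knockout tumors and 12.1, 5.29, 21.3 and 14.6 in hemizygous tumors, dim throughout and without a call. Cacna1a, the P/Q-type channel of nerve terminals, lay between 1.73 and 54.1 over the 20 arrays and differed by 0.34 in both kinds of tumor (adjusted p = 0.16).

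The alpha2delta genes split. Cacna2d1, a target of gabapentin, measured 635, 433, 991 and 849 in wild-type ganglia, 815 and 779 in homozygous ganglia, 1190, 1220, 1640 and 1620 in homozygous tumors, 1230 and 1140 in Mdk knockout tumors and 1490, 1690, 1130 and 1100 in hemizygous tumors. All tumors exceeded all ganglia, with log2 differences to wild-type ganglia of 1 (SE 0.22, adjusted p = 0.00093) and 0.92 (SE 0.22, adjusted p = 0.0015). Cacna2d3, which gabapentin does not bind, measured 305, 173, 236 and 227 in wild-type ganglia, 116 and 183 in homozygous ganglia, 40.8, 35.5, 30.2 and 35.5 in homozygous tumors, 24.8 and 46.4 in Mdk knockout tumors and 11.8, 21.8, 17 and 20.7 in hemizygous tumors. Every tumor lay below every ganglion, and the differences of -2.27 (SE 0.2, adjusted p = 4.6e-08) and -2.88 (SE 0.2, adjusted p = 1.8e-09) took the mean from 235 ± 54.4 (SD, n = 4) in wild-type ganglia to 35.5 ± 4.35 (SD, n = 4) in homozygous and 17.8 ± 4.49 (SD, n = 4) in hemizygous tumors. Cacna2d2 measured 101, 45.7, 161 and 205 in wild-type ganglia, 91.1 and 95.4 in homozygous ganglia, 171, 241, 157 and 156 in homozygous tumors, 231 and 210 in Mdk knockout tumors and 165, 191, 129 and 169 in hemizygous tumors, overlapped between ganglia and tumors and passed in neither comparison.

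Beta subunits, which bind the alpha1 subunit from inside the cell and carry it to the membrane, also split. Cacnb2 measured 1.24, 1.45, 2.78 and 2.6 in wild-type ganglia, 9.64 and 6.92 in homozygous ganglia, 23, 12.9, 28.9 and 27 in homozygous tumors, 21.4 and 17.4 in Mdk knockout tumors and 33.4, 33.6, 45.6 and 41.7 in hemizygous tumors. Its intensities were low everywhere, yet every tumor exceeded every ganglion and hemizygous tumors exceeded homozygous ones, whose range held the Mdk knockout tumors. The log2 differences to wild-type ganglia were 1.09 (SE 0.15, adjusted p = 1.2e-05) and 1.59 (SE 0.15, adjusted p = 1e-07). The second, dimmer probe set of Cacnb2 rose by less, 0.17 and 0.58. Cacnb4, the beta subunit whose loss makes mice lethargic and epileptic, measured 83.3, 63.9, 205 and 236 in wild-type ganglia, 38 and 68.5 in homozygous ganglia, 36.1, 24.4, 35.7 and 34.5 in homozygous tumors, 38.2 and 38.7 in Mdk knockout tumors and 5.41, 10.2, 20.6 and 16.7 in hemizygous tumors. Every tumor was below every wild-type ganglion. The log2 differences were -1.58 (SE 0.3, adjusted p = 0.00024) and -2.34 (SE 0.3, adjusted p = 3e-06), and against wild-type ganglia 1 and 2 alone they were -0.88 and -1.64. Cacnb1 measured 38, 41.1, 43.2 and 43.6 in wild-type ganglia, 27.2 and 53.9 in homozygous ganglia, 33.8, 32.1, 27.9 and 21.2 in homozygous tumors, 21.2 and 31.9 in Mdk knockout tumors and 14.7, 2.34, 20.3 and 33.1 in hemizygous tumors. Only the hemizygous tumors passed, at -0.86 (SE 0.23, adjusted p = 0.0045), and the homozygous difference was -0.37 (adjusted p = 0.2). Cacnb2 therefore rose and Cacnb4 fell in both kinds of tumor.

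Among gamma subunits the neighbours Cacng4 and Cacng5 moved in opposite directions. They lie side by side on chromosome 11, next to Cacng1. Cacng4, an auxiliary subunit that slows the closing of AMPA receptors, measured 40.5, 32.7, 16.8 and 16.1 in wild-type ganglia, 81.1 and 83.7 in homozygous ganglia, 320, 269, 276 and 225 in homozygous tumors, 293 and 248 in Mdk knockout tumors and 216, 172, 221 and 160 in hemizygous tumors. Wild-type ganglia were lowest, homozygous ganglia between, and tumors highest, without overlap. The log2 difference was 2.8 (SE 0.21, adjusted p = 5.7e-09) in homozygous and 2.32 (SE 0.21, adjusted p = 3.8e-08) in hemizygous tumors, the highest of all members in both. Its second probe set rose by less, 0.86 and 0.66. Cacng5, of the same family, measured 91, 62.8, 190 and 167 in wild-type ganglia, 63.1 and 72.7 in homozygous ganglia, 30.6, 21.3, 18.5 and 20 in homozygous tumors, 23.7 and 28.6 in Mdk knockout tumors and 10.5, 13.7, 12.5 and 16 in hemizygous tumors. Here every tumor was below every ganglion, and the differences to wild-type ganglia were -1.8 (SE 0.24, adjusted p = 7.8e-06) and -2.2 (SE 0.24, adjusted p = 5.8e-07). The second, dimmer probe set of Cacng5 fell by less, -0.32 and -0.29.

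Of the other gamma genes, only Cacng2 passed between tumors and wild-type ganglia. Cacng2, the stargazin gene, measured 50, 23.6, 70 and 48.1 in wild-type ganglia, 26.3 and 31.1 in homozygous ganglia, 50.3, 40.6, 64.5 and 51.5 in homozygous tumors, 47 and 54 in Mdk knockout tumors and 28.2, 22.3, 28.3 and 5.12 in hemizygous tumors. It passed in hemizygous tumors at -0.8 (SE 0.24, adjusted p = 0.01), although 1 wild-type ganglion, at 23.6, lay within their range, and against wild-type ganglia 1 and 2 alone the difference was -0.53 (adjusted p = 0.12). Cacng7 measured 123, 80.3, 89.6 and 23.3 in wild-type ganglia, 67.8 and 82 in homozygous ganglia, 55.9, 54.6, 108 and 72.4 in homozygous tumors, 49.2 and 34.3 in Mdk knockout tumors and 95.7, 129, 32.9 and 47.1 in hemizygous tumors. For Cacng8 the values were 27.3, 10.6, 59 and 38.2 in wild-type ganglia, 15.1 and 25.9 in homozygous ganglia, 65.7, 43.2, 53.8 and 53.3 in homozygous tumors, 89.5 and 38.7 in Mdk knockout tumors and 63.5, 45.5, 33.1 and 42.8 in hemizygous tumors. Cacng3 measured 19.3, 9.04, 6.94 and 14 in wild-type ganglia, 25.3 and 8.12 in homozygous ganglia, 16.3, 23.8, 14.6 and 21.8 in homozygous tumors, 6.69 and 13.2 in Mdk knockout tumors and 17.8, 17.3, 25.8 and 16.9 in hemizygous tumors. None of Cacng3, Cacng7 and Cacng8 passed in either kind of tumor against wild-type ganglia, and their groups overlapped.

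**Figure D3:**
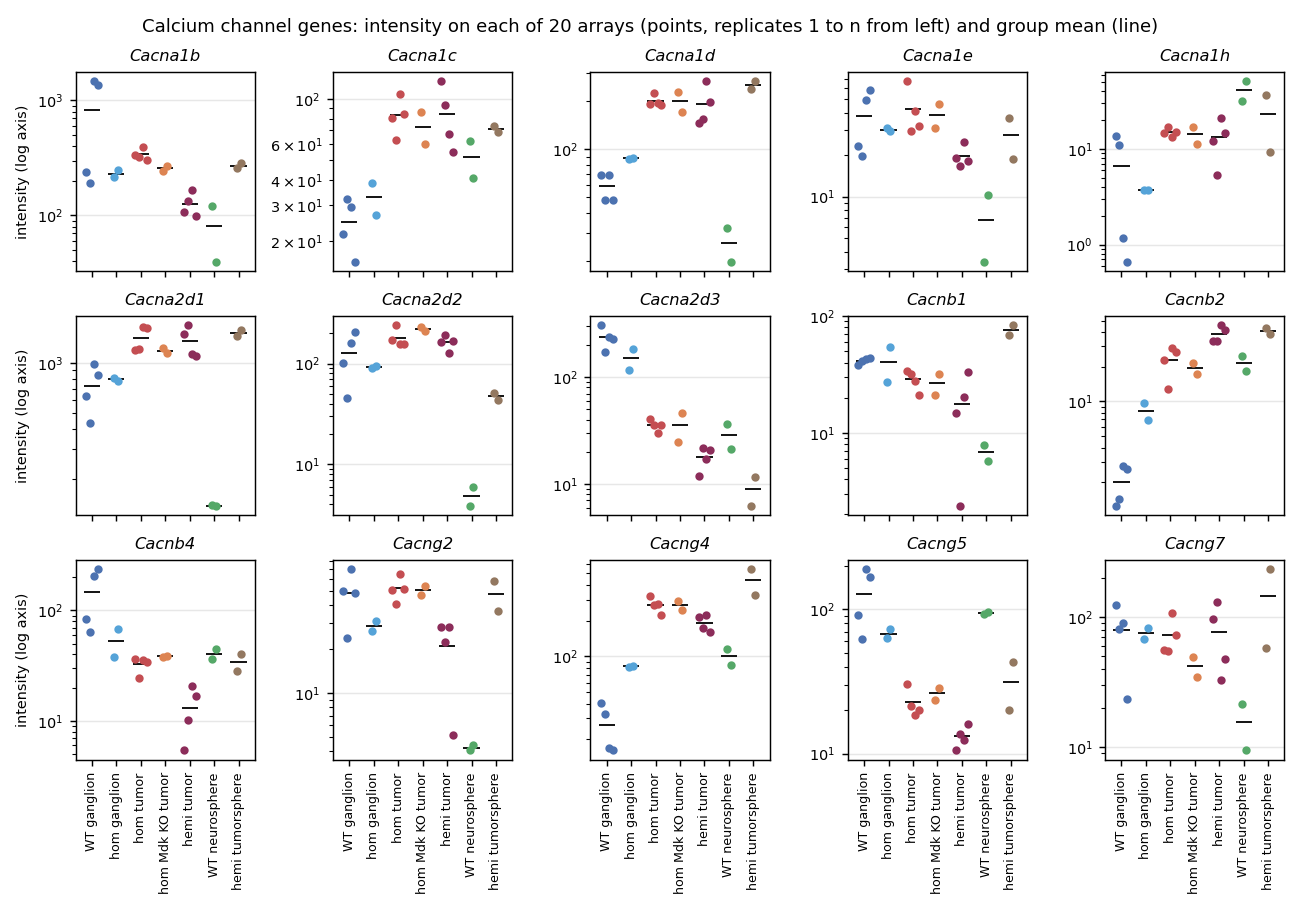
Intensity of 15 calcium channel genes on each of the 20 arrays (log axis, a scale of its own for each gene), with replicates from left to right and the group mean as a line. Cacna1d, Cacna1c, Cacna2d1, Cacnb2 and Cacng4 have all tumors above all ganglia, and Cacna2d3, Cacnb4 and Cacng5 lie lower in tumors.

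In homozygous ganglia against wild-type ganglia only Cacng4 and Scn1a passed. Cacng4 was 81.1 and 83.7 against 16.1 to 40.5, a log2 difference of 1.25 (SE 0.25, adjusted p = 0.0051), and Scn1a was 40.6 and 43.8 against 58.1 to 117, a difference of -0.83 (SE 0.23, adjusted p = 0.048). These 2 of 33 members compare with 5.01% of all genes that passed, 3.99% higher and 1.02% lower. Groups did not overlap in 3 members that were higher and 3 that were lower, against 14% and 13.5% of all genes. With 2 homozygous ganglia the calls were not stable. Leaving out homozygous ganglion 1 or 2 ended that of Cacng4 (adjusted p = 0.098 and 0.066) and that of Scn1a (0.42 and 0.2), and leaving out wild-type ganglion 3 or 4 ended that of Scn1a (0.12 for each). With the mean of all probe sets Cacng4 was at 0.53 (adjusted p = 0.073), and its second probe set differed by -0.2. Without wild-type ganglion 2, however, 10 members passed, 9 of them lower. Calls over all genes rose as well, from 758 to 2232, of which 54.7% were higher. Against wild-type ganglia 3 and 4 alone 13 members passed, 12 of them lower, and so did 5283 of all genes, 54.2% of them higher. Against wild-type ganglia 1 and 2 alone 1 member and 515 of all genes passed. Neuronal and sympathetic markers gave 0 calls in this comparison, and all 6 markers of dividing cells rose.

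Homozygous tumors against homozygous ganglia gave 14 calls among the 33 members, 7 higher and 7 lower, where 21.6% of all genes passed, 9.35% higher and 12.3% lower. These were the controls of the same genotype. Groups lay apart in 12 members that were higher and 9 that were lower, against 27.1% and 30.3% of all genes. Lower were Scn7a (-1.73), Cacna2d3 (-1.66), Scn2b (-1.2), Scn3b (-1.17), Cacng5 (-1.13), Scn11a (-0.82) and Scn1a (-0.76), given as log2 differences. Higher were Cacng4 (1.54), Cacna1d (1.06), Cacna1c (1.01), Cacna1a (0.81), Cacna2d1 (0.8), Scn8a (0.69) and Cacnb2 (0.66). Adjusted p ran from 0.00017 (Cacna2d3) to 0.043 (Scn11a). For Cacna1a the ganglia were 19.9 and 1.73 and the tumors 26.7 to 29.5, so the size of its difference rests on homozygous ganglion 2. Without that ganglion 4 of these members passed, Cacna1d, Cacna2d3, Cacng4 and Scn2b. Without homozygous ganglion 1 it was 7, and without homozygous tumor 3 it was 8. Of the sodium channel genes that fell against wild-type ganglia, Scn2a (-0.15) and Scn3a (-0.18) overlapped between homozygous ganglia and tumors, and Scn9a, at -0.95 (SE 0.34, adjusted p = 0.051), did not pass. Other markers moved here too. Lower were 6 of 8 glial, 4 of 6 fibroblast, 3 of 6 endothelial, 2 of 8 sympathetic and 2 of 12 neuronal markers. Higher were 1 neuronal marker (Nefm) and 4 of 6 markers of dividing cells, and their part was not tested. In Cacna1a, Cacna1d, Cacng5, Scn2b and Scn3b at least 1 other probe set had the opposite sign.

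Hemizygous tumors were lower than homozygous tumors in 4 members, Scn3b, Scn9a, Scn2b and Cacng2, and higher in none. Among all genes 6.21% passed, 3.46% higher and 2.74% lower. Scn3b was 240, 173, 226 and 183 in hemizygous and 796, 710, 645 and 493 in homozygous tumors, a log2 difference of -1.6 (SE 0.19, adjusted p = 7.5e-05). For Scn9a, with the values given above, it was -1.47 (SE 0.27, adjusted p = 0.0037), and for Scn2b -0.97 (SE 0.16, adjusted p = 0.0019). In all 3 genes the groups did not overlap. Cacng2 was 28.2, 22.3, 28.3 and 5.12 against 50.3, 40.6, 64.5 and 51.5, a difference of -0.92 (SE 0.24, adjusted p = 0.031), and hemizygous tumor 4 was the lowest. That call ended without hemizygous tumor 4 (-0.67, adjusted p = 0.11) and without homozygous tumor 1, 3 or 4 (-0.93, -0.84 and -0.92, adjusted p = 0.065 to 0.098). The other 2 Scn2b probe sets differed by 0.06 and 0.1, and the mean of all its probe sets by -0.27 (adjusted p = 0.18). Beyond the calls, 13 members (39.4%) lay lower in every hemizygous than in every homozygous tumor, against 8.78% of all genes, and 1 lay higher, against 11.8%. Cacna1b was among those lower, at 107, 134, 166 and 99.1 against 336, 321, 396 and 305, a difference of -1.33, without a call. The fit takes its spread from all 7 groups, and for Cacna1b these include wild-type ganglia at 240, 190, 1470 and 1370. The median log2 difference was -0.18 over the members and 0.06 over all genes. The other tissue markers moved as well: 3 of 8 sympathetic and 2 of 12 neuronal markers were lower and 1 neuronal marker (Nefh) higher, and 4 of 6 endothelial, 2 of 7 macrophage and 2 of 10 smooth muscle markers were higher in hemizygous tumors. Their part was not tested.

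Mdk knockout changed no channel gene at the threshold. The Mdk knockout tumors differed from homozygous tumors by -0.59 to 0.36 on the log2 scale over the 33 members, the lowest adjusted p in limma was 1, and 0 members had an unadjusted p below 0.05. Of all 15132 genes only Mdk itself passed, 0.00661%. Both knockout tumors lay above all homozygous tumors in 3 members and below them in 6, against 8.13% and 8.37% of all genes. The number of knockout tumors, 2, limits how small a difference could be called. Scn8a (91.6 and 125), Cacna1d (229 and 172) and Cacng4 (293 and 248) lay close to the homozygous tumors, whose ranges were 101 to 112, 190 to 227 and 225 to 320.

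In cultured wild-type neurospheres 8 of 10 tested sodium channel genes were lower than in wild-type ganglia, and Scn8a and Scn4b (-0.23 on the log2 scale) did not pass. The comparison gave 22 calls of 33, 4 higher and 18 lower, where 39.2% of all genes passed, 16.8% higher and 22.4% lower. Neurospheres lay above all wild-type ganglia in 4 members and below them in 20, against 17.3% and 25.1% of all genes. The median log2 difference was -1.05 over the members and -0.12 over all genes. Neurosphere 2 was the array with the high Gapdh ratio, while the beta-actin ratio was 7.77 on neurosphere 1 and 3.78 on neurosphere 2. Calls that ended without either array are named with the calcium channel genes. All 8 sympathetic and 11 of 12 neuronal markers fell as well, the neuronal sum being 1250 and 1280 in neurospheres. Scn9a was 0.422 and 1.36 in neurospheres and 732 to 1050 in wild-type ganglia (log2 difference -5.68, SE 0.34, adjusted p = 4.1e-10). Scn7a was 23.1 and 4.36 (log2 difference -5.05, SE 0.48, adjusted p = 1.7e-07). Their means in ganglia were 861 and 985. Scn2b was 11.2 and 5.36 (log2 difference -4.39, SE 0.2, adjusted p = 1.4e-11) and Scn3b 61.2 and 45.9 (log2 difference -4.06, SE 0.23, adjusted p = 3.1e-10). Scn3a was 37.1 and 18.6 (log2 difference -3.07) and Scn2a 28.5 and 12.2 (-2.37). Neither overlapped the ganglia. Scn1a was 18.2 and 17.2 (-1.61) and Scn11a 18.5 and 11 (-1.05), while Scn8a, at 66.5 and 50.7, differed by 0.21 and overlapped the ganglia.

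Calcium channel genes of several families were lower in neurospheres too (log2 differences to wild-type ganglia in parentheses). Cacna1b was 122 and 39.2 (-2.72), Cacna1e 3.37 and 10.2 (-1.18) and Cacna1d 32.1 and 19.6 (-0.84), the last being higher in tumors. Cacna2d1 was 139 and 136 (log2 difference -2.21, SE 0.27, adjusted p = 2.7e-06), Cacna2d2 3.83 and 5.98 (log2 difference -2.63, SE 0.34, adjusted p = 6.3e-06) and Cacna2d3 36.2 and 21.2 (log2 difference -2.49, SE 0.24, adjusted p = 2.3e-07). Thus 3 of 4 alpha2delta genes fell. Cacnb1 was 7.88 and 5.7 (-1.34), Cacnb4 36.2 and 45.2 (-1.36), Cacng2 4.04 and 4.42 (-1.61) and Cacng7 21.6 and 9.44 (-1.48). The 4 that rose were Cacng4 at 116 and 84.4 (log2 difference 1.48, SE 0.25, adjusted p = 0.00013), Cacna1h at 31.6 and 51.3 (log2 difference 1.37, SE 0.29, adjusted p = 0.001), Cacnb2 at 24.8 and 18.3 (log2 difference 1.06, SE 0.19, adjusted p = 0.00019) and Cacna1c at 62.3 and 41 (log2 difference 0.73, SE 0.26, adjusted p = 0.034). Cacna1h was above every other array only on neurosphere 2. The Cacna1c call ended without neurosphere 1 (0.5, adjusted p = 0.26) or wild-type ganglion 1 or 4 (0.7 and 0.61) and with the mean of its probe sets (0.04, adjusted p = 0.89). Without neurosphere 2, Cacna1b (-2.06), Cacna1d (-0.62), Scn11a (-0.88) and Cacng7 (-1.2) no longer passed, and without neurosphere 1 neither Cacna1e (-0.97) nor Cacnb4 (-1.24) did. Cacng7 also failed without wild-type ganglion 1 (-1.25). Cacng5 was 92.9 and 95.4, Cacng3 1.7 and 4.81 and Cacng8 39.9 and 33.3, without a call.

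Tumorspheres of hemizygous mice were higher than neurospheres in 17 of 33 members and lower in 2, where 38.4% of all genes passed, 23.5% higher and 14.9% lower. Both tumorspheres exceeded both neurospheres in 20 members and lay below both in 5, against 39.5% and 27.3% of all genes. The median log2 difference was 0.93 over the members and 0.11 over all genes. The sums of sympathetic markers were 7950 and 8390 in tumorspheres. Higher than in neurospheres were 7 of 8 sympathetic and 10 of 12 neuronal markers. Not all were bright, as Slc6a2 was 15.7 and 27.4 in tumorspheres. Cacna2d1 was 1450 and 1590 in tumorspheres (log2 difference 3.32, SE 0.31, adjusted p = 1.7e-07), Scn9a 141 and 124 (log2 difference 3.13, SE 0.39, adjusted p = 5.2e-06) and Cacna1d 239 and 267 (log2 difference 2.7, SE 0.26, adjusted p = 2.9e-07). Scn3b was 409 and 363 (log2 difference 2.54, SE 0.27, adjusted p = 9.1e-07) and Scn2b 92.9 and 95.8 (log2 difference 2.19, SE 0.23, adjusted p = 7.3e-07). In each of these genes both tumorspheres exceeded both neurospheres. Cacnb1 was 68.6 and 83.7 (log2 difference 2.01), Cacng4 542 and 331 (1.94) and Cacng7 58.2 and 232 (2.13), the last apart by far between its 2 cultures. Scn2a was 100 and 97 (1.69), Scn3a 128 and 119 (1.7) and Scn8a 170 and 129 (1.15). All 3 exceeded both neurospheres, and Scn8a was highest of all groups in tumorspheres.

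Of the gamma subunits 5 of 7 tested were higher in tumorspheres than in neurospheres. Beside Cacng4 and Cacng7 these were Cacng2 at 58 and 36.4 (log2 difference 1.62), Cacng3 at 42.1 and 25.1 (1.35) and Cacng8 at 116 and 74.5 (1.06). Cacna2d2 was 51.5 and 43.4 (1.6), Cacna1e 36.9 and 18.7 (0.93) and Cacnb2 43.1 and 38.4 (0.6). The 2 lower members were Cacng5 at 20 and 43.2 (log2 difference -1.25, SE 0.35, adjusted p = 0.0076) and Cacna2d3 at 6.16 and 11.7 (log2 difference -0.83, SE 0.28, adjusted p = 0.026), both of which were also lower in tumors than in wild-type ganglia. Scn1a (13.4 and 3.54), Scn7a (1.38 and 7.96), Scn11a (14.8 and 8.15), Cacnb4 (28.5 and 40.5), Cacna1c (73.5 and 68.9) and Cacna1h (36.5 and 9.4) did not pass. Cacna1b, at 259 and 284, differed by 1.72 (SE 0.69, adjusted p = 0.058) and missed the threshold. Without tumorsphere 1 the calls of Cacna1e (0.63), Cacna2d3 (-0.67), Cacnb2 (0.54), Cacng5 (-0.89) and Cacng8 (0.79) ended, and without tumorsphere 2 those of Cacng7 (1.26) and Cacnb2 (0.66). Without neurosphere 1 those of Cacna1e (0.71), Cacna2d3 (-0.59) and Cacng8 (1.15) ended, and without neurosphere 2 those of Cacnb2 (0.47), Cacng7 (1.85), Cacng8 (0.97), Scn2a (1.36) and Scn3a (1.4).

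**Figure D4:**
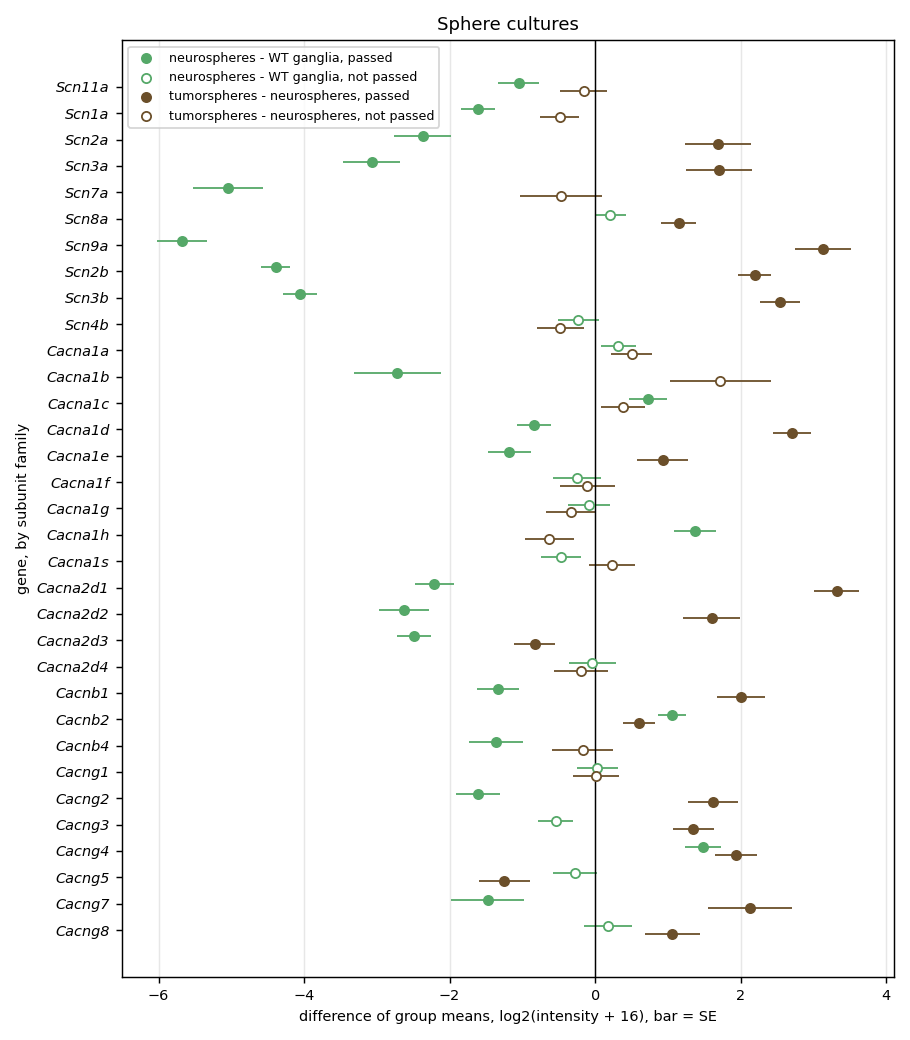
Difference of group means in log2(intensity + 16) for the 33 tested channel genes, neurospheres minus wild-type ganglia and tumorspheres minus neurospheres, with bars of 1 SE. Filled points passed. Scn9a is lowest in the first comparison, at -5.68, and Cacna2d1 is highest in the second, at 3.32.

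Against the hemizygous tumors of the same genotype, tumorspheres differed in 4 members, where 12.6% of all genes passed, 5.61% higher and 6.99% lower. Tumorspheres lay above all these tumors in 12 members and below them in 4, against 21.9% and 20.4% of all genes. Cacnb1 was 68.6 and 83.7 in tumorspheres against 14.7, 2.34, 20.3 and 33.1 in tumors (log2 difference 1.54, SE 0.29, adjusted p = 0.0014), Cacng4 542 and 331 against 216, 172, 221 and 160 (log2 difference 1.09, SE 0.25, adjusted p = 0.0076) and Scn3b 409 and 363 against 240, 173, 226 and 183 (log2 difference 0.87, SE 0.23, adjusted p = 0.019). In these 3 the tumorspheres were above every tumor. Cacna2d2 was lower, 51.5 and 43.4 against 165, 191, 129 and 169 (log2 difference -1.49, SE 0.34, adjusted p = 0.0069). Single arrays decided 3 of the calls. Without tumorsphere 1 the log2 differences were 0.75 for Cacng4, 0.79 for Scn3b and -1.58 for Cacna2d2, and without tumorsphere 2 they were 0.95 for Scn3b and -1.4 for Cacna2d2, none of which passed. Scn3b also failed without hemizygous tumor 2 (0.8). The means of all probe sets did not pass for Cacnb1 (0.42), Scn3b (0.4) or Cacna2d2 (-0.51). All 7 macrophage, all 6 endothelial and 5 of 6 fibroblast markers were lower in tumorspheres than in tumors, and the macrophage sum was 42.1 and 89 against 1300 to 3120. Centring each array on its median raised the share of higher genes among all calls from 44.5% to 57.8% here, with 5 members higher and 1 lower.

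Over all 7 groups, 27 members were above an intensity of 40 on at least 1 array, a limit chosen after the values were seen. Among them, 6 of the 7 tested sodium channel alpha genes had their highest group mean in wild-type ganglia. Cacna1d, Cacna2d1, Cacng4 and Scn8a had theirs in tumorspheres. The limit let in Cacna1a (54.1) and Cacng3 (42.1) through tumorsphere 1 alone, and Cacna1h (51.3) through neurosphere 2 alone. For that reason, and as no such ranking was made over all genes, members are not counted by their highest or lowest group. The 8 remaining members, Cacna1f, Cacna1g, Cacna1s, Cacna2d4, Cacng1, Cacng6, Scn10a and Scn4b, stayed below 40 on every array. Cacna1s and Cacng1 belong to the channel of skeletal muscle, and their highest values were 17.8, on wild-type ganglion 3, which had little Acta1, and 18.5, on hemizygous tumor 3, which had much. Of these 8, 6 were tested and none passed in any of the 9 comparisons. Cacna1f, the retinal channel, reached 37.9, Cacna2d4 28.6 and Cacna1g, a T-type channel, 24.4.

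Genes of sodium channel partners and of the sodium leak channel had calls in both directions in tumors. From a list of 15 genes, 14 were tested, and 2 rose and 7 fell in each kind of tumor against wild-type ganglia (median log2 difference -0.53 in homozygous and -0.74 in hemizygous tumors). Among all genes 49.8% and 52.6% passed, with medians of -0.12 and -0.05. Fgf14, which binds the tail of alpha subunits at the axon initial segment, fell most, with log2 differences of -3.52 (SE 0.36, adjusted p = 3.4e-07) in homozygous and -3.81 (SE 0.36, adjusted p = 9.7e-08) in hemizygous tumors. Cntn1, an adhesion molecule that binds beta subunits, fell too, at -2.5 (SE 0.27, adjusted p = 4.6e-07) and -2.69 (SE 0.27, adjusted p = 1.4e-07). Nedd4l, the ubiquitin ligase that removes channels from the surface, rose, at 1.38 (SE 0.28, adjusted p = 0.00044) and 1.21 (SE 0.28, adjusted p = 0.0012). Fgf13 rose in homozygous tumors (log2 difference 1.59, SE 0.61, adjusted p = 0.038) and was lower in hemizygous than in homozygous tumors (log2 difference -2.73, SE 0.61, adjusted p = 0.012), and Nfasc, which anchors channels at the initial segment, rose in hemizygous tumors (log2 difference 1.04, SE 0.34, adjusted p = 0.016). In homozygous against wild-type ganglia 1 of the 14 passed, Fgf12 at -1.26 (SE 0.31, adjusted p = 0.021), where 5.01% of all genes passed. Against neurospheres, tumorspheres had 5 of the 14 higher and 5 lower (38.4% of all genes passed), led by Unc80 (log2 difference 3.36, SE 0.32, adjusted p = 2.3e-07), a subunit of the sodium leak channel, and Fgf14 (log2 difference -4.51, SE 0.52, adjusted p = 2.1e-06). In neurospheres against wild-type ganglia 1 rose, Fgf11, and 6 fell (39.2% of all genes passed), Unc80 (log2 difference -3.25, SE 0.28, adjusted p = 3.6e-08) and the leak channel Nalcn (log2 difference -2.63, SE 0.28, adjusted p = 6.4e-07) most.

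Of 16 listed partners of calcium channels 11 were tested, and 4 rose and 3 fell in each kind of tumor (medians 0.18 and 0.26), where 49.8% and 52.6% of all genes passed. Rem2 and Gem are small GTPases that bind beta subunits and inhibit the channel. Rem2 rose, with log2 differences of 1.37 (SE 0.23, adjusted p = 7.4e-05) in homozygous and 1.99 (SE 0.23, adjusted p = 8.9e-07) in hemizygous tumors. It was also the 1 of the 11 called in homozygous against wild-type ganglia (log2 difference 1.08, SE 0.28, adjusted p = 0.03), where 5.01% of all genes passed. Gem rose in homozygous tumors (log2 difference 1.24, SE 0.26, adjusted p = 0.00059). The active zone protein Erc2 fell, at -0.95 (SE 0.17, adjusted p = 0.00014) and -2.27 (SE 0.17, adjusted p = 4.7e-09), and Stac, an adaptor of L-type channels, fell at -1.7 (SE 0.16, adjusted p = 1.4e-07) and -1.91 (SE 0.16, adjusted p = 2.4e-08). Erc2 and Gem were also lower in hemizygous than in homozygous tumors (-1.32 (SE 0.17, adjusted p = 0.00018) and -0.92 (SE 0.26, adjusted p = 0.042)), where 6.21% of all genes passed. Tumorspheres exceeded neurospheres in 9 of the 11 and fell below in none (median 1.31, where 38.4% of all genes passed and their median was 0.11). Rem2 (log2 difference 3.12, SE 0.32, adjusted p = 6.4e-07) and Rimbp2 (log2 difference 2.45, SE 0.33, adjusted p = 1.4e-05) were highest. Tumorspheres exceeded hemizygous tumors in 4, where 12.6% of all genes passed, 5.61% higher. Gem (log2 difference 1.84, SE 0.32, adjusted p = 0.00071) and Erc2 (log2 difference 1.36, SE 0.21, adjusted p = 0.00023) differed most.

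Genes of calcium release from internal stores and of store-operated entry, 13 tested of 14, gave 2 higher and 4 lower in homozygous tumors and 1 higher and 2 lower in hemizygous tumors, each set against wild-type ganglia. These 6 and 3 calls compare with 49.8% and 52.6% of all genes. The ryanodine receptor gene Ryr2, which opens the stores, fell, with log2 differences of -1.24 (SE 0.21, adjusted p = 7.5e-05) and -2.67 (SE 0.21, adjusted p = 6.7e-09), and the inositol trisphosphate receptor Itpr3 at -0.72 (SE 0.19, adjusted p = 0.0035) and -0.87 (SE 0.19, adjusted p = 0.00063). The pump gene Atp2a2, which refills the stores, rose, at 1 (SE 0.15, adjusted p = 3.2e-05) and 0.97 (SE 0.15, adjusted p = 3.9e-05), and Ryr3 rose in homozygous tumors (log2 difference 1.38, SE 0.27, adjusted p = 0.00037). Hemizygous tumors were lower than homozygous ones in Ryr2 (log2 difference -1.44, SE 0.21, adjusted p = 0.00052) and Ryr3 (log2 difference -1.29, SE 0.27, adjusted p = 0.0085) and higher in Orai3 (log2 difference 0.68, SE 0.19, adjusted p = 0.042). Between the kinds of tumor 6.21% of all genes passed. In homozygous ganglia 0 of the 13 passed, against 5.01% of all genes. In Mdk knockout tumors 0 of the 3 lists' members did, against 0.00661%.

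The choice of probe set set the size of many differences. Only further probe sets that passed the filter on low values were counted here. Sets left out in this way could have the other sign, as the second Scn3a set did in homozygous tumors against wild-type ganglia (0.15). In that comparison 14 of the members that passed had further probe sets that were counted. In 11 of these all had the sign of the brightest. The exceptions were Cacna1d, Cacna2d1 and Scn2a. Against homozygous ganglia, homozygous tumors had 7 of 12 with a common sign, and Cacna1a, Cacna1d, Cacng5, Scn2b and Scn3b had a probe set of the other sign. In hemizygous tumors against wild-type ganglia it was 15 of 16, with Scn8a as the exception, and in neurospheres against wild-type ganglia 12 of 14, with Cacna1c and Cacnb2 as the exceptions. For Scn9a the 3 other probe sets that passed the filter differed by -1.29 to -0.75 in homozygous and -1.94 to -1.51 in hemizygous tumors. A dimmer set below the filter differed by -0.13 and -0.42. For Scn7a the 2 others differed by -2.66 and -1.31 and by -4.06 and -1.59. The brightest sets of Cacna1b, Cacna1d and Scn9a carry names that mark a possible match to several transcripts.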

How the data were processed

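Each of 20 mouse RNA samples was read on 1 Affymetrix expression array, after 2 rounds of amplification from 40 ng, per the labels' protocols. The deposited table holds a linear intensity per probe set, scaled before deposit: in every array the mean after trimming 2% at each end was 100. The software behind these intensities: not given in the sources used here. Intensities were transformed to log2(intensity + 16) without further normalization (array medians spanned 0.33). Of 45101 probe sets 64 controls were left out, and of the rest 34945 had 1 gene symbol, 932 several and 9160 none. Symbols were updated through a gene table of GRCm38.p6, which also gave the chromosome and order of the genes. Genes were tested if 2 or more arrays held them above that array's 40th percentile.

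All arrays entered 1 fit of 7 group means by lmFit and eBayes of limma 3.58.1 in R 4.3.3, with 13 degrees of freedom left, two-sided contrasts and Benjamini-Hochberg adjustment over 15132 genes. The steps were tested on simulated arrays. The number of arrays limits the precision. No 2 arrays were repeats (highest correlation 0.99, at most 0.0022% identical values). Whether equal replicate numbers pair samples was not settled. The deviations of 48 same-number pairs correlated at -0.32 to 0.28, and 7 exceeded 0.1. In a group of 2 arrays the deviations mirror each other, so these values cannot exclude pairing.

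The members and the lists of partner and marker genes were chosen with earlier results of these data known. A member is described with the value on every array if it passed with a log2 difference of at least 1 in size and without overlap in tumors or homozygous ganglia against wild-type ganglia, or passed between tumor genotypes or in a comparison with spheres, which gave 26. Of the partner lists, up to 2 genes with the highest and 2 with the lowest difference among those called are named per comparison. Alternatives tried were pseudocounts of 1 and 64, median centring, quantile normalization, a filter at the 60th percentile or none, only the compared arrays, a replicate block, a term for replicates 1 and 2 against 3 and 4, the mean of all probe sets, another prior, subsets of wild-type ganglia, no arrays with Acta1 above 100, and each array left out.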

Additional observations from a re-analysis of the deposited data

Results flagged for a closer look

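In 4 members the difference between hemizygous and homozygous tumors, each against the same wild-type ganglia, passed in limma. The hemizygous minus homozygous effect was -1.6 for Scn3b, -1.47 for Scn9a, -0.97 for Scn2b and -0.92 for Cacng2 on the log2 scale, the same values as the direct comparison of the tumors, since the shared ganglia cancel. Scn3b, Scn9a and Scn2b were lower in 4 of 4 hemizygous tumors than in every homozygous tumor, and so was Cacng2.

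In 3 of 78 groups of 4 arrays, taken over the members, the highest or lowest array stood far from the other 3 of its group. Homozygous tumor 2 was highest in Cacna1d at 227 and lowest in Cacnb4 at 24.4, and hemizygous tumor 3 was highest in Cacng3 at 25.8. Chance flags about 1 in 20 groups.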

How the results depend on the processing

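Between hemizygous and homozygous tumors, 4 members passed in the main fit and 11 in a fit of the compared arrays only. Calls over all genes rose as well, from 939 to 1966. Without the arrays with Acta1 above 100, 7 members passed. That count and the counts of members that follow have no count of all genes beside them. They therefore cannot tell a shift of the channel genes from a shift of calls over all genes. Homozygous against wild-type ganglia, with 2 calls, gave 0 with the compared arrays only, 1 with the mean of all probe sets, the replicate block, the term for replicates 1 and 2 against 3 and 4, or wild-type ganglia 1 and 2 alone, 13 with wild-type ganglia 3 and 4 alone and 11 without the Acta1 arrays. Homozygous tumors against homozygous ganglia, with 14, gave 9 with the replicate block and 9 without the Acta1 arrays. Tumorspheres against hemizygous tumors, with 4, gave 2 with the mean of probe sets and 10 without the Acta1 arrays. Leaving out 1 array gave 3 to 5 calls for hemizygous against homozygous tumors, 20 to 22 for hemizygous and 15 to 18 for homozygous tumors against wild-type ganglia, 0 to 10 for homozygous against wild-type ganglia, 4 to 14 for homozygous tumors against homozygous ganglia, 0 for Mdk knockout, 18 to 23 for neurospheres against ganglia, 1 to 5 for tumorspheres against tumors and 14 to 17 for tumorspheres against neurospheres. The 1 reversed value was Scn3a in homozygous tumors against wild-type ganglia 1 and 2 alone, 0.01. Of 101 results of single members, 63 passed under every setting run. The replicate block changed no other count of calls by over 1.5 times, and whether the numbers pair the samples was not settled. A fit of the compared arrays only leaves the differences of group means unchanged and takes the spread from those arrays alone. Some other settings bring fewer arrays or other controls, and the cause of the other shifts was not tested.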

Other observations

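The 2 pairs of wild-type ganglia that stood apart differed most in the N-type calcium channel gene Cacna1b, by 2.64 on the log2 scale. Cacna1b had a mean of 215 in ganglia 1 and 2 and 1420 in ganglia 3 and 4, Scn3a 188 and 625, Scn2a 89.3 and 308, and Cacnb4 73.6 and 221. In Scn2b and Scn9a the pairs overlapped. The sum of sympathetic markers was 17000 and 13700 in ganglia 1 and 2 and 33400 and 26600 in ganglia 3 and 4, the sum of skeletal muscle markers 7290 and 5570 against 114 and 68.3, and that of Schwann and satellite glia 10100 and 9690 against 10700 and 11100. The labels give no batch, kind of ganglion or age by which to split these 4 arrays, and the part of the markers was not tested.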
